A study of Mus musculus with 15 samples.

Results

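The comparison described here sets 4T1 cells in which wild-type Twist1 was put back after depletion (titled 4T1_Tw1KD/Twist1, 3 arrays) against parental 4T1 cells (3 arrays). It uses 6 of the 15 arrays of the study, chosen by their titles and not by any measured value, and asks what the restored line fails to bring back and where it goes past the parental level. 4T1 is a metastatic mammary carcinoma line of the mouse, and all 5 lines of the study derive from it. The Tw1KD line (3 arrays) lacks part of its endogenous Twist1. Each of the other 3 lines carries 1 construct on top of that depletion: wild-type Twist1, or Twist1 with the substitution S42A or S42D (3 arrays each). The S42D arrays were assigned by title alone, because their genotype label mentions S42A as well. Per the labels' protocols, culture medium held puromycin (4 µg/ml) and G418 (800 µg/ml). The protocol makes no separate statement for parental cells, so the drugs and the history of selection cannot be told apart from Twist1 in any comparison with parental cells. How Twist1 was depleted, the promoter of the construct, and whether a line is 1 clone or a pool are not given in the sources used here. The labels do not say that replicates were separate cultures, so p-values here reflect array-to-array spread, which may be technical.

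Twist1 is a basic helix-loop-helix transcription factor that pairs with E proteins and binds short DNA words called E-boxes. In the embryo it guides mesoderm and neural crest, and in carcinoma cells it is known as a driver of epithelial-mesenchymal transition, the program in which cells lose E-cadherin junctions and gain motility. A line in which a depleted factor is put back is the usual control for whether the effects of the depletion come from that factor.

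Values are log2 intensities, so a difference of 1 is a 2-fold change. Genes were tested with limma over all 15 arrays, and a gene was called at a Benjamini-Hochberg adjusted p under 0.05. Differences are given as log2 ± standard error with n = 3 arrays per line. Arrays of 1 line correlated at 0.997 to 0.999 across genes and arrays of different lines at 0.975 to 0.987. The lower quartile of all arrays lay between 5.01 and 5.17 log2, and a level near it is close to the array background, where a fold is understated. Precision is limited by having 3 arrays a line.

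Twist1 itself was only partly restored as this array reads it. On the parental arrays it read 9.01, 9.03 and 9.07 log2, on the Tw1KD arrays 7.47, 7.23 and 7.35, and on the arrays of the wild-type Twist1 line 8.35, 8.49 and 8.16. The 3 sets of arrays did not overlap, and the restored line lay between the others. It was 0.70 ± 0.080 below parental cells (adjusted p = 3.74e-06 in limma), with 58.4% of the loss taken back. Whether this probe set reads the introduced transcript is not known.

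The restored line differed from parental cells across much of the array. Of 19937 genes, 9778 (49%) were called between the wild-type Twist1 line and parental cells, 4984 higher (25%) and 4794 lower (24%). Most of these differences were small: 870 genes (4.36%) differed by at least 1 log2, 438 higher (2.2%) and 432 lower (2.17%). The median difference over all genes was -0.05 log2, the largest rise 4.30 and the largest fall 5.48 in size, against a median standard deviation within a line of 0.0664. All 3 restored arrays lay on one side of all 3 parental arrays for 58.8% of genes, and 47.6% were both called and separate. The split by direction depends on the scaling. Higher genes made up 51% of the calls with the deposited values, 56.4% after quantile normalization and 71.6% after median centring of every array, which moved the median of all genes to 0.074. Small differences are therefore relative to that shift. Each list count given below from the deposited values is to be read against the 25% of all genes called higher and the 24% called lower. With median centring 6532 of the 19937 genes were called higher and 2590 lower. List counts given for that setting are to be read against these numbers.

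Depletion had moved 7242 genes (36.3%) away from parental cells, with 19.9% of all genes higher and 16.4% lower. By at least 1 log2 it had moved 529 (2.65%), 206 upward (1.03%) and 323 downward (1.62%). These genes were sorted by where the wild-type line stood, using its calls against parental cells and against Tw1KD cells (48% of all genes called). The comparisons share arrays, so the classes are a description with no test of their own. Of the 529 genes, 80 (15.1%) had moved back and were not called against parental cells. A further 197 (37.2%) had moved back part of the way, and 114 (21.6%) had passed the parental level and were called on its other side. Another 68 (12.9%) were not called against Tw1KD cells, and 70 (13.2%) had moved further from parental cells than depletion had taken them. A gene in the first class may still differ from parental cells by less than 3 arrays can show, and the same holds for the genes not called against Tw1KD.

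**Figure D1:**
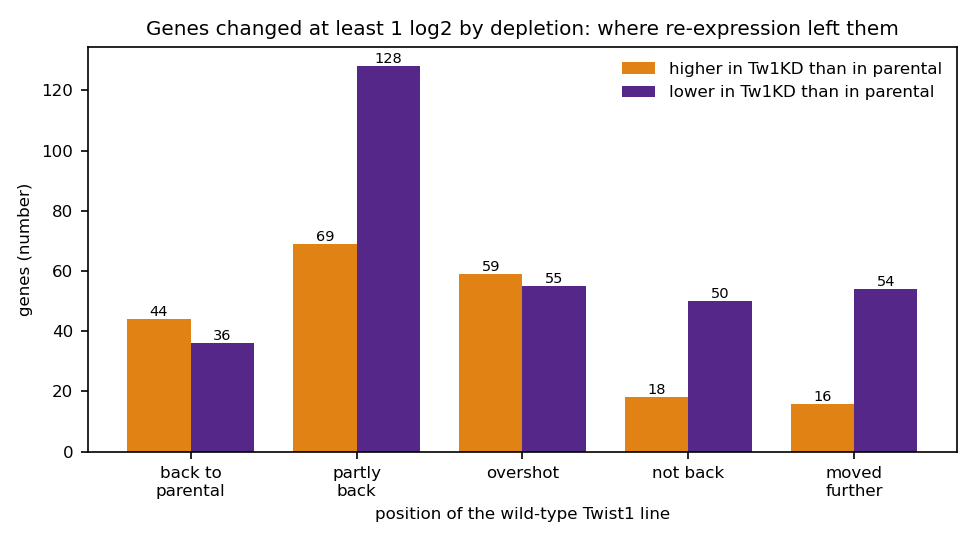
Number of genes (vertical axis) in each class of return (horizontal axis), for the 206 genes that were at least 1 log2 higher in Tw1KD than in parental cells (orange) and the 323 that were at least 1 log2 lower (purple). Partly returned genes are the largest class on both sides, with 69 and 128 genes, and the purple bars for genes not back (50) or moved further (54) stand above the orange ones (18 and 16).

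Of the 206 genes that depletion had raised by at least 1 log2 21.4% were back, and of the 323 it had lowered 11.1%. Without that limit the shares were closer, at 21.3% of 3970 raised and 19.2% of 3272 lowered genes. The share of the depletion difference taken back had a median of 88% over the 206 raised genes (quartiles 38% and 117%) and of 41.3% over the 323 lowered genes (quartiles 0.504% and 95.3%). A share below 0, meaning a move away from parental cells, was seen for 23 raised and 80 lowered genes. No test was made of this difference. Genes that came back, named after their values were seen, include Dsp, the plaque protein desmoplakin, Cxcl16, a chemokine, and Plat, tissue plasminogen activator. Dsp stood at 8.41, 8.54 and 8.59 in parental cells, 10.62, 10.79 and 10.74 after depletion and 8.31, 8.38 and 8.32 in the wild-type line. All 3 restored values lay just below the parental ones, and the difference of -0.17 ± 0.087 was not called.

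**Figure D2:**
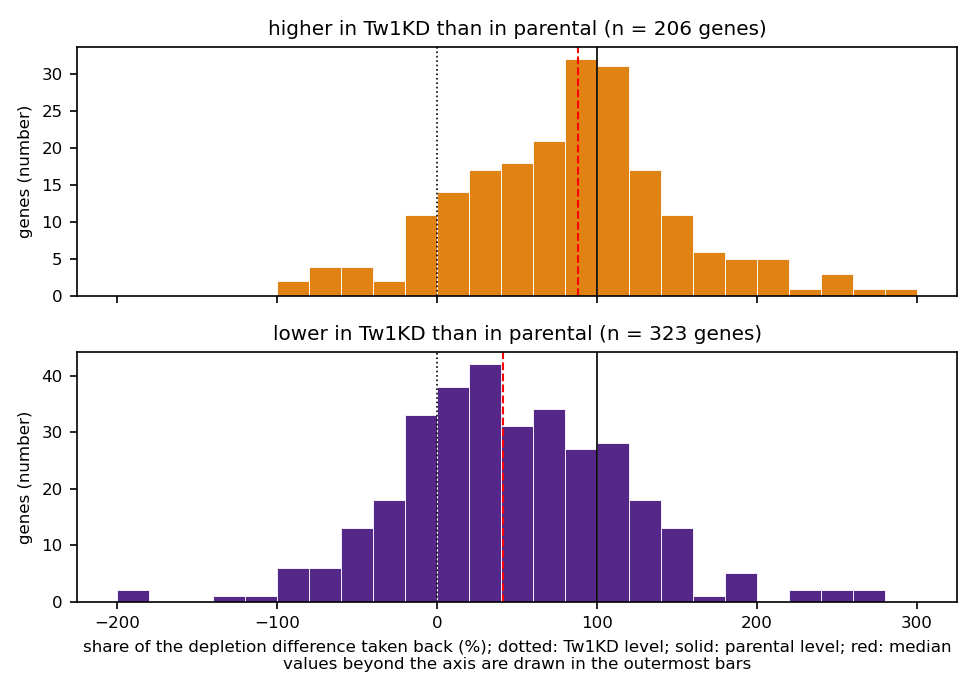
Histograms of the share of the depletion difference taken back in the wild-type Twist1 line (horizontal axis, percent) against the number of genes (vertical axis), for genes higher (top) and lower (bottom) in Tw1KD than in parental cells by at least 1 log2. The dashed red median lies at 88% in the top panel and 41.3% in the bottom panel, with the Tw1KD level at 0 (dotted) and the parental level at 100 (solid).

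Read from the other end, of the 870 genes that stood at least 1 log2 from parental cells in the restored line, 397 (45.6%) lay beyond the Tw1KD level on the same side. Another 201 (23.1%) had not been called after depletion at all, 151 (17.4%) had overshot, 69 (7.93%) were not back and 52 (5.98%) were partly back. Over all 7242 genes moved by depletion 1475 were back (20.4%), 773 partly back (10.7%), 1716 overshot (23.7%), 1495 not back (20.6%), 1516 moved further (20.9%) and 267 undecided (3.69%). As shares of all 19937 genes these are 7.4%, 3.88%, 8.61%, 7.5%, 7.6% and 1.34%. In addition 4278 genes (21.5% of all) were called against parental cells without having been called after depletion. Class counts given for the lists below are to be read against these shares of all genes.

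Most epithelial junction genes overshot. Depletion had raised many of them, and in the restored line they stood below parental cells. Of 17 measured genes of adherens and tight junctions, 11 were lower than in parental cells and 1 was higher (F11r, 0.12), with a median of -0.40 log2 against -0.05 for all genes. The median after depletion had been 0.54. By class, 9 of the 17 overshot, 3 were back (Cldn3, Cldn7 and Ctnnd1) and 1 had moved further, Tjp1, the scaffold ZO-1 (-0.63 ± 0.042).

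Cdh1, the gene of E-cadherin, stood at 10.33, 10.31 and 10.29 in parental cells, 11.45, 11.46 and 11.45 after depletion and 8.52 on all 3 arrays of the wild-type line. The 3 lines did not overlap, and the restored line was the lowest. It was 1.79 ± 0.045 below parental cells, a 3.46-fold difference (adjusted p = 1.27e-12 in limma). Epcam, an adhesion molecule of epithelial cells, had parental values of 7.91, 8.37 and 8.80, Tw1KD values of 9.95, 9.22 and 10.10 and restored values of 5.64, 5.64 and 5.69. The parental and depleted arrays spread widely, yet every restored array lay more than 2 log2 below every parental one. The difference was -2.70 ± 0.21. Ocln, the tight junction protein occludin, fell from 9.57, 9.45 and 9.64 in parental cells to 7.53, 7.68 and 7.70 in the restored line (-1.91 ± 0.078). Cldn4, a claudin, was lower by 1.40 ± 0.12 and Marveld2, tricellulin, by 1.06 ± 0.072, each with no overlap between the 2 lines.

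E-boxes were looked for in the RefSeq promoter windows of these genes, since Twist1 belongs to a class of factors that bind them. A window holds 250 bases before and 50 after a transcript start, on build GRCm38.p6, and 15613 of the 19937 genes had at least 1. A gene with several windows was counted once, as a match if any of them matched. The general E-box CANNTG, searched on both strands, was found for 13 of 14 junction genes with a window (92.9%). It was found for 71.5% of all genes with a window, so most genes hold it. The narrower CATATG was in 0 of the 14 (3.28% of all), CAGATG in 1 (16.1%) and CAGCTG in 1 (18.4%). Each of the 3 narrower words is also a match of the general one. The window of Epcam, the junction gene with the largest fall among those with a window, lies at chr17:87635729-87636028 on the plus strand and is shown with its 3 CANNTG matches in capitals. A match is no more than these letters.
Epcam: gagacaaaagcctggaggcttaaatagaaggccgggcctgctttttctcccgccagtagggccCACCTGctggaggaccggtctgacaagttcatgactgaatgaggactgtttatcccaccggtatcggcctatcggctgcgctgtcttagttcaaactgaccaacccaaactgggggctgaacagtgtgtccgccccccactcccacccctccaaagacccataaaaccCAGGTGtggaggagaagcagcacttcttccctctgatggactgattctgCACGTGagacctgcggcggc

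Desmosome genes and the membrane proteases of epithelia included further genes that overshot. Desmosome genes were lower than in parental cells for 7 of 11 and higher for 0, with a median of -0.30. Perp, a desmosome component and p53 effector, had parental values of 9.71, 9.53 and 9.73, Tw1KD values of 10.59, 10.29 and 10.41 and restored values of 6.73, 6.55 and 6.8. The restored arrays stood apart from both other lines, with a difference from parental cells of -2.96 ± 0.091. Dsg2, a desmosomal cadherin, was lower by 1.03 after a rise of 2.29 on depletion. Of 7 genes of the matriptase system, 4 were lower and 0 higher. St14, the protease matriptase, read 10.19, 10.02 and 10.18 in parental cells, 11.61, 11.59 and 11.58 after depletion and 7.49, 7.54 and 7.61 in the restored line. That is a 5.98-fold difference from parental cells (-2.58 ± 0.060) with no overlap. Its inhibitor Spint2, which depletion had not moved by a called amount (0.030), was lower by 1.26 ± 0.036. Mpzl2, an adhesion molecule of the junctional region, overshot as well, at -3.24 ± 0.11.

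Keratins were mixed. Of 10 keratins, 3 were lower (Krt19 -1.33, Krt7 -0.79 and Krt18 -0.33) and 1 was higher, Krt8 (0.12), or 3 with median centring. Krt8 stayed among the brightest genes, at 13.04 to 13.10 in parental cells and 13.14 to 13.20 in the restored line. Of the 6 markers taken for an epithelial cell, Krt8 and Krt18 thus remained bright, Cdh1 and Krt19 were lower, Epcam lay near the lower quartile of the arrays, and Cldn7 (6.92 to 6.96) was not called against parental cells.

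**Figure D3:**
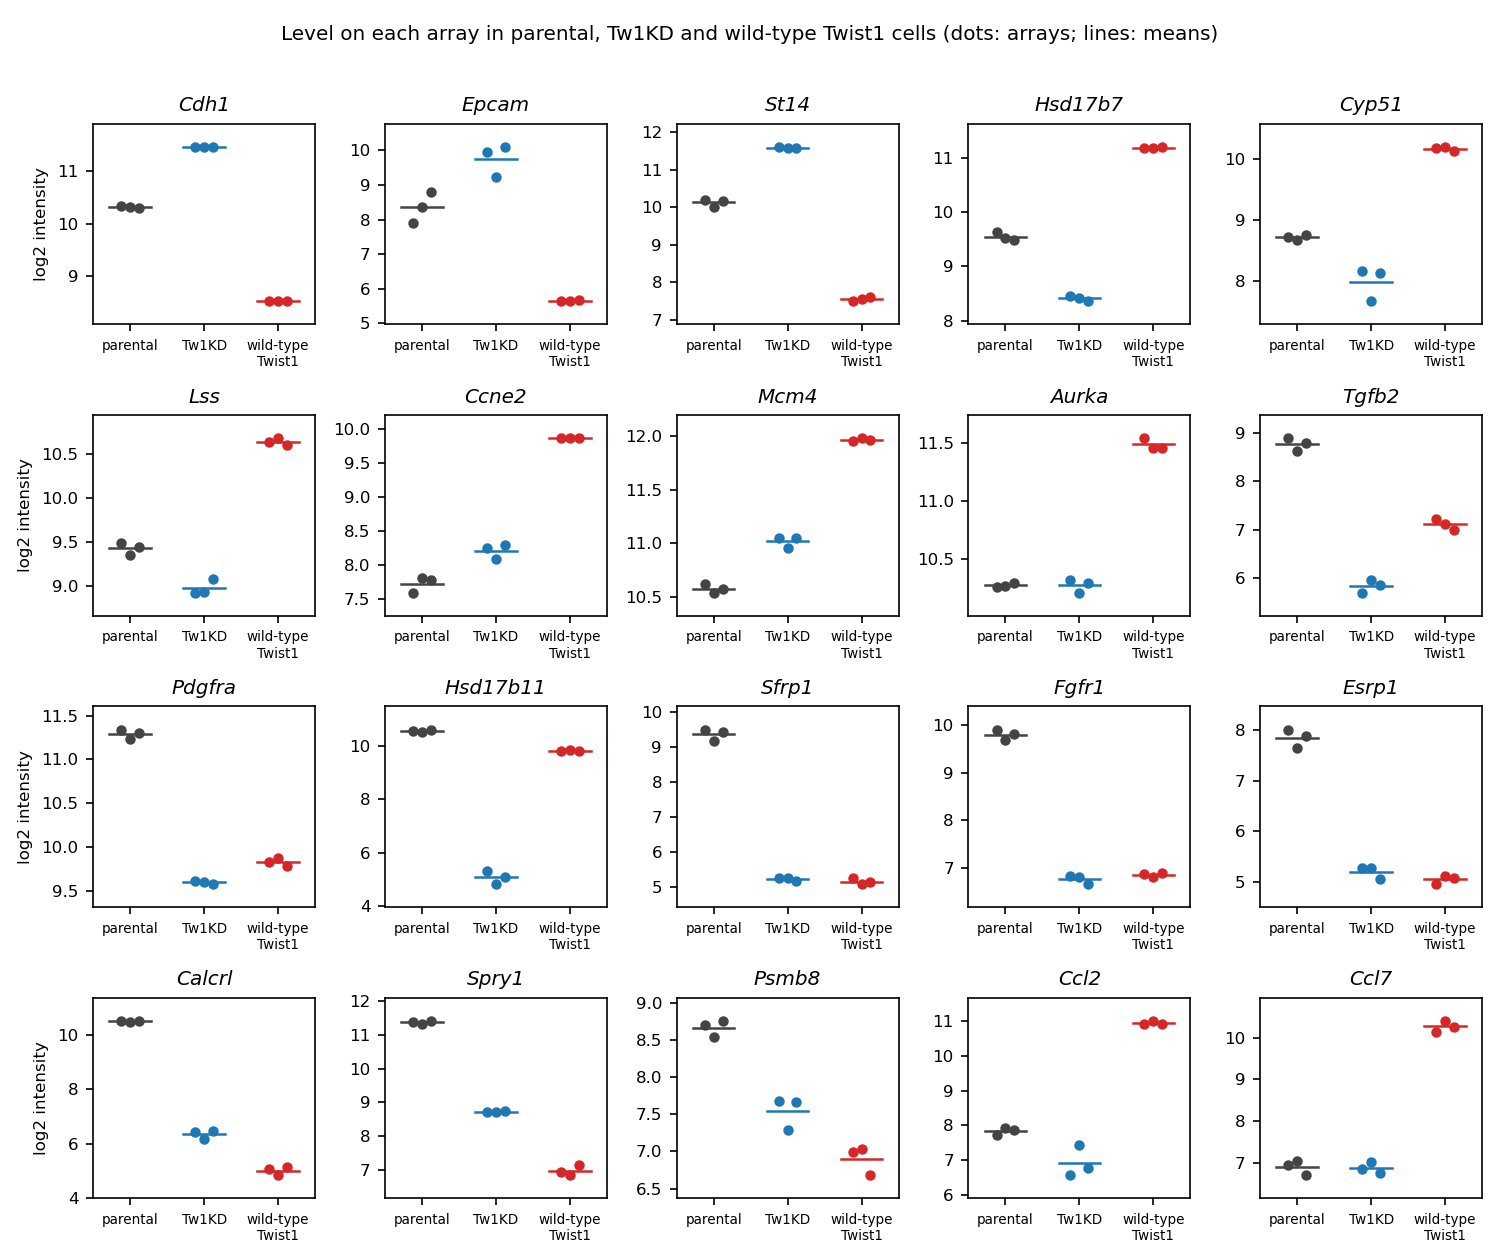
Log2 intensity (vertical axes, each panel with its own range) of 20 genes on the 3 arrays each of parental (dark grey), Tw1KD (blue) and wild-type Twist1 (red) cells, with the mean of each line as a bar. The red dots lie below both other lines (Cdh1, Epcam, St14) or above both (Hsd17b7, Cyp51, Lss), in Sfrp1, Fgfr1 and Esrp1 they lie beside the blue ones, and in Calcrl, Spry1 and Psmb8 they lie further from the grey ones than the blue do.

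The regulators of the epithelial state did not move as the junction genes did. Of 17 measured, 6 were lower and 3 higher than in parental cells, and 4 were not back. With median centring 2 were lower and 6 higher, a setting in which 2590 of the 19937 genes were lower and 6532 higher. Esrp1, a splicing factor of epithelial cells, read 8.01, 7.64 and 7.88 in parental cells, 5.27, 5.27 and 5.06 after depletion and 4.96, 5.12 and 5.08 in the restored line. Depleted and restored arrays overlapped and lay near the array background, with the restored line at -2.79 ± 0.086 from parental cells. Foxa1, a pioneer factor of luminal cells, had parental values of 6.90, 6.66 and 6.93, Tw1KD values of 8.52, 8.20 and 8.47 and restored values of 8.44, 8.46 and 8.48. It stayed 1.63 ± 0.083 above parental cells, with a difference from Tw1KD of 0.066 (adjusted p = 0.537 in limma). Grhl2, a grainyhead factor that maintains epithelial genes, was likewise not back (0.42), while Esrp2 (-0.26) and Ovol1 (-0.30) overshot.

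Mesenchymal markers were not raised as a group. Of 29 measured, 4 were higher than in parental cells and 11 lower, with a median of -0.11. With median centring 5 were higher and 6 lower, and the median was 0.014. Those higher were S100a4 (0.77), the intermediate filament gene Nes (0.73), the fibronectin receptor chain Itga5 (0.62) and the collagen crosslinking enzyme Lox (0.33). Vim, vimentin, was not called (0.070 ± 0.033), at mean levels of 13.48 in parental cells and 13.55 in the restored line. Cdh2, N-cadherin, was not called either (-0.11), and its sign turned with median centring (0.011). Its mean levels were 4.58 in parental cells, 4.49 in Tw1KD cells and 4.47 in the restored line. These lie below the lower quartile of the arrays, where no change cannot be told apart from no signal. Fn1, fibronectin, was lower by 0.23. The collagen chain Col6a1 and the matrix protein Sparc, both lowered by depletion (-2.18 and -1.06), were back.

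The EMT transcription factors were mixed, with 5 of 23 higher and 6 lower (8 higher and 4 lower with median centring). Zeb2 and Snai1, repressors of E-cadherin, overshot by a small amount (0.21 and 0.31) after falling on depletion. Snai2 was not called (-0.10, and 0.019 with median centring). Its mean levels of 4.57 in parental cells and 4.46 in the restored line also lay below the lower quartile of the arrays. The largest rise was in Id1, an inhibitor of helix-loop-helix factors, at 1.43 above parental cells, beyond its rise on depletion of 1.24. The largest fall was in Foxc1 (-1.06). Of 24 genes reported as Twist1 targets, 10 were lower and 6 higher than in parental cells, and 5 were not back. Bmi1, a polycomb gene named as an induced target, read 10.04, 9.96 and 9.94 in parental cells and 10.97, 10.95 and 11 in the restored line. It was higher on all 3 arrays (1.0 ± 0.059), after a rise of 0.23 on depletion.

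TGF-beta ligands fell into several classes. TGF-beta and activin are secreted factors that signal through Smad proteins. Of 13 ligand genes 6 were lower than in parental cells and 1, Gdf11, was higher (0.29). By class 2 were partly back, 2 had moved further and 1 had overshot, against 3.88%, 7.6% and 8.61% of all genes. Inhba, the activin A subunit, had parental values of 10.54, 10.35 and 10.61, Tw1KD values of 6.57, 6.42 and 6.13 and restored values of 8.15, 8.15 and 8.14. The restored line lay between the others with no overlap, 43.0% of the way back and 2.35 ± 0.099 below parental cells. Tgfb2 read 8.89, 8.62 and 8.80 in parental cells, 5.71, 5.97 and 5.87 after depletion and 7.23, 7.12 and 7.0 in the restored line, 43.4% of the way back (-1.65 ± 0.090). Tgfb3 (-0.97) and Bmp7 (-0.61) had moved further than depletion took them.

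Below the ligands, 7 of 20 receptors and Smads were lower and 6 higher, against 4 lower and 8 higher with median centring. Smad3, a signal carrier, was not back (-0.72), while Smad2 (0.70) and the inhibitory Smad7 (0.78) stood above parental cells. Of 15 extracellular regulators 10 were lower and 0 higher, led by Ltbp2, a latent TGF-beta binding protein (-1.60). The count fell to 6 with median centring and to 6 without wild-type replicate 2. Of 19 response genes of TGF-beta or YAP signalling, 11 were lower and 4 higher. The matricellular genes Ccn2 (-1.35), Ccn1 (-0.87) and Ccn4 (-2.08) came back in part. Ccn3 instead overshot, from 6.03, 6.04 and 6.07 in Tw1KD cells past the parental 7.94, 7.67 and 7.97 to 9.34, 9.43 and 9.34.

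PDGF ligands and growth factor receptors were mostly lower. Of 20 genes 12 were lower and 4 higher, with a median of -0.33. Pdgfra, the PDGF receptor alpha, read 11.34, 11.23 and 11.30 in parental cells, 9.61, 9.60 and 9.58 after depletion and 9.83, 9.88 and 9.78 in the restored line. Only 14% of its loss was taken back (-1.45 ± 0.043 from parental cells), whereas Pdgfrb regained 75.4% of its loss and ended 0.51 below them. Fgfr1, an FGF receptor, had parental values of 9.91, 9.69 and 9.81, Tw1KD values of 6.83, 6.81 and 6.66 and restored values of 6.87, 6.81 and 6.89. Depleted and restored arrays overlapped, and the restored line was 7.70-fold below parental cells. Pdgfc, a PDGF ligand, fell further, from 6.5, 6.58 and 6.36 in Tw1KD cells to 5.55, 5.35 and 5.66 in the restored line, against 9.10, 9.01 and 9.05 in parental cells. Mertk, a receptor of the TAM family, went the other way, from a depletion change of -2.42 to 0.48 above parental cells.

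Some of the largest distances were in genes that stood lower still in the restored line than in Tw1KD cells. Calcrl, the receptor of adrenomedullin and calcitonin gene-related peptide, read 10.52, 10.49 and 10.50 in parental cells, 6.43, 6.17 and 6.46 after depletion and 5.06, 4.85 and 5.15 in the restored line. Its arrays fell into 3 separate groups, and the difference of -5.48 ± 0.084 was the largest fall of all genes. The restored values lay near the lower quartile of the arrays, so this fall and the step below Tw1KD may be understated. Spry1, an inhibitor of receptor tyrosine kinase signalling, read 11.38, 11.32 and 11.41, then 8.72, 8.72 and 8.75, then 6.94, 6.85 and 7.14 in the same order of lines (-4.40 ± 0.058). Its relative Spry4 stood above parental cells (0.84) and Spry2 was 0.30 below. Itga8, an integrin chain that binds RGD ligands, read 9.89, 9.88 and 9.95 in parental cells, 9.03, 8.96 and 9.07 after depletion and 5.47, 5.34 and 5.70 in the restored line. Most of its fall was not there after depletion, which had taken it down by 0.89. Sfrp1, a secreted Wnt antagonist, was not back: its parental values of 9.49, 9.16 and 9.41 compare with 5.27, 5.25 and 5.18 in Tw1KD cells and 5.25, 5.09 and 5.13 in the restored line. Car9 (-3.35) and Car12 (-3.73), membrane carbonic anhydrases, also moved further. Of 28 hypoxia and glycolysis genes 11 were lower and 10 higher (8 and 12 with median centring).

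Adhesion receptors were mostly lower. Of 24 integrin and adhesion genes 15 were lower than in parental cells and 3 higher, with a median of -0.43 (-0.0099 after depletion). Beside Itga8 these included Mcam (-2.10), Alcam (-1.75), Icam1 (-1.57) and Itga2, a collagen receptor chain (-1.44). Those higher were Itgb7 (2.26, not back), Itga5 (0.62) and Itga6 (0.20). Matrix proteases were lower for 13 of 24 and higher for 4. Mmp9, a gelatinase, read 11.56, 11.50 and 11.54 in parental cells and 8.66, 8.76 and 8.69 in the restored line (-2.83 ± 0.057), beyond its depletion fall of 0.57. Mmp3, stromelysin 1, overshot upward, at 0.91 above parental cells after a depletion fall of 2.09. Mmp1b rose by 3.41 from a level near the background (4.14 to 4.62), and it and Mmp1a are near-identical copies that the probes may not separate. Of 21 collagens 8 were lower and 1 higher, against 24% and 25% of all genes. The lower count ranged from 4 to 11 with 1 array left out (4 without parental replicate 1 or wild-type replicate 1, 5 without replicate 2 of either line).

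Genes of DNA replication and of mitosis were higher. All 24 measured genes of DNA replication and S phase were higher than in parental cells, against 25% of all genes, with a median of 1.2 log2. After depletion alone 12 of them had been higher and 3 lower (median 0.19). Ccne2, cyclin E2, which drives entry into S phase, read 7.6, 7.82 and 7.78 in parental cells, 8.25, 8.10 and 8.30 after depletion and 9.87 on all 3 arrays of the restored line. The groups did not overlap, and the difference of 2.14 ± 0.078 is 4.40-fold. Mcm4, a subunit of the replicative helicase, read 10.62, 10.54 and 10.57 in parental cells, 11.05, 10.96 and 11.05 after depletion and 11.95, 11.98 and 11.96 in the restored line. By class 11 of the 24 had moved further in the direction of depletion and 9 had not been called after it.

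All 24 measured genes of mitosis and the spindle were higher as well, with a smaller median of 0.66. Here depletion had lowered 15 and raised 4 (median -0.22), and 15 overshot. Aurka, a spindle kinase, read 10.26, 10.27 and 10.29 in parental cells, 10.32, 10.21 and 10.29 after depletion and 11.54, 11.46 and 11.46 in the restored line. Parental and depleted arrays overlapped, and the restored line lay 1.21 ± 0.039 above both. The cell cycle inhibitor Cdkn1b (-0.38) and the retinoblastoma gene Rb1 (-0.60) were lower, while Cdkn2d was higher (0.77). Growth rate is not among the data analysed here. The labels give 70% confluency for all lines.

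A pair of motifs was added after these gene groups had been seen to rise: TTTNNCGC, letters of the E2F type known from S-phase promoters, and TCACNCCAC, letters of a sterol element. TTTNNCGC was found for 11 of 20 replication genes with a window (55%), 1 of 19 mitosis genes (5.26%) and 7.55% of all genes with a window. TCACNCCAC was found for 1 of 14 cholesterol synthesis genes with a window (7.14%), Hmgcs1, and for 1.4% of all. Both were searched on both strands, and neither holds an E-box within it. Chosen after the fact, these shares are a description. The replication genes with a window and the largest rises were Ccne1 (1.80), Orc1 (1.69), Pola1 (1.53) and Cdc45 (1.53). Ccne1 and Cdc45 hold no match. The windows of Ccne1 (chr7:38107441-38107740, minus strand), Orc1 (chr4:108579204-108579503, plus strand) and Pola1 (chrX:93632106-93632405, minus strand) are shown to set a window without the letters beside ones with 1 match each, in capitals.
Ccne1: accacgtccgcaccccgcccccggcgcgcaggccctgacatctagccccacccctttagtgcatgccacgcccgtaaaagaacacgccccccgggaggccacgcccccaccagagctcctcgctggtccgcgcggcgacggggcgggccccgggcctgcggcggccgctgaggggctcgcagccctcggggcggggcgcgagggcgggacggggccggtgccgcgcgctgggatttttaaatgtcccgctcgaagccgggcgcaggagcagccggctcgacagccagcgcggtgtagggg
Orc1: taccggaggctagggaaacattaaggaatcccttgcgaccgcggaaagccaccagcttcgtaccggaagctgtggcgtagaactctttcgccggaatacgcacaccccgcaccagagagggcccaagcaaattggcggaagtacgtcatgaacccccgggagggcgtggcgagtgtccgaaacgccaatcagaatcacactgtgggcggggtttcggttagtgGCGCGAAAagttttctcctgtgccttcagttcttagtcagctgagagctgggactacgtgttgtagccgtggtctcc
Pola1: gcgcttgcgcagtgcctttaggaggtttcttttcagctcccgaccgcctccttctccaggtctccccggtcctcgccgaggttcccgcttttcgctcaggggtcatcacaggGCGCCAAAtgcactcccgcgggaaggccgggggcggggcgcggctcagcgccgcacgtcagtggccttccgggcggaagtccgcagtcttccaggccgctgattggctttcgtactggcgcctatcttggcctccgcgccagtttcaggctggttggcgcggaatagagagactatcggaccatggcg

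Cholesterol synthesis overshot upward. The pathway builds sterols from acetyl-CoA under the control of SREBP factors. Of 17 measured enzymes 15 were higher than in parental cells and 2 lower, with a median of 0.67 after a median fall of 0.47 on depletion, and 13 overshot. Hsd17b7, a sterol reductase, read 9.63, 9.53 and 9.49 in parental cells, 8.46, 8.42 and 8.36 after depletion and 11.18, 11.18 and 11.2 in the restored line. The lines did not overlap, and the restored line was 3.10-fold above parental cells (1.63 ± 0.054). Cyp51, lanosterol demethylase, read 8.72, 8.67 and 8.75, then 8.16, 7.66 and 8.12, then 10.17, 10.19 and 10.13 in the same order of lines. The exceptions were Tm7sf2 (-0.62) and Dhcr7, late reductases (-0.11, and 0.012 with median centring). The regulator Srebf2 overshot (0.56), while Insig1, which holds SREBP back, came back in part (-0.17). Of the 16 genes of lipid uptake and SREBP control 9 were higher and 4 lower.

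Interferon and antigen presentation genes were lower. Of 30 interferon response genes 19 were lower than in parental cells and 4 higher, with a median of -0.36 against 0.094 after depletion. Irf7, the master factor of type I interferon genes, read 7.75, 7.72 and 7.82 in parental cells, 8.07, 7.72 and 8.01 after depletion and 6.27, 6.31 and 6.85 in the restored line. All 3 restored arrays lay below those of both other lines (-1.29 ± 0.13). Isg20, an RNA exonuclease, was lower by 1.60 ± 0.049. Ifit2 (1.2), Oasl1 (0.98), Ifit1 (0.54) and Eif2ak2 (0.38) stood against this direction. Of 10 genes of MHC class I presentation 9 were lower and 1, H2-M3, was higher (0.30), with a median of -0.83. Psmb8, an immunoproteasome subunit, read 8.71, 8.54 and 8.76 in parental cells, 7.68, 7.29 and 7.67 after depletion and 6.99, 7.03 and 6.68 in the restored line (-1.77 ± 0.12). It and 4 others (Psmb9, Psmb10, Tap2 and Tapbp) had moved further than depletion took them.

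**Figure D4:**
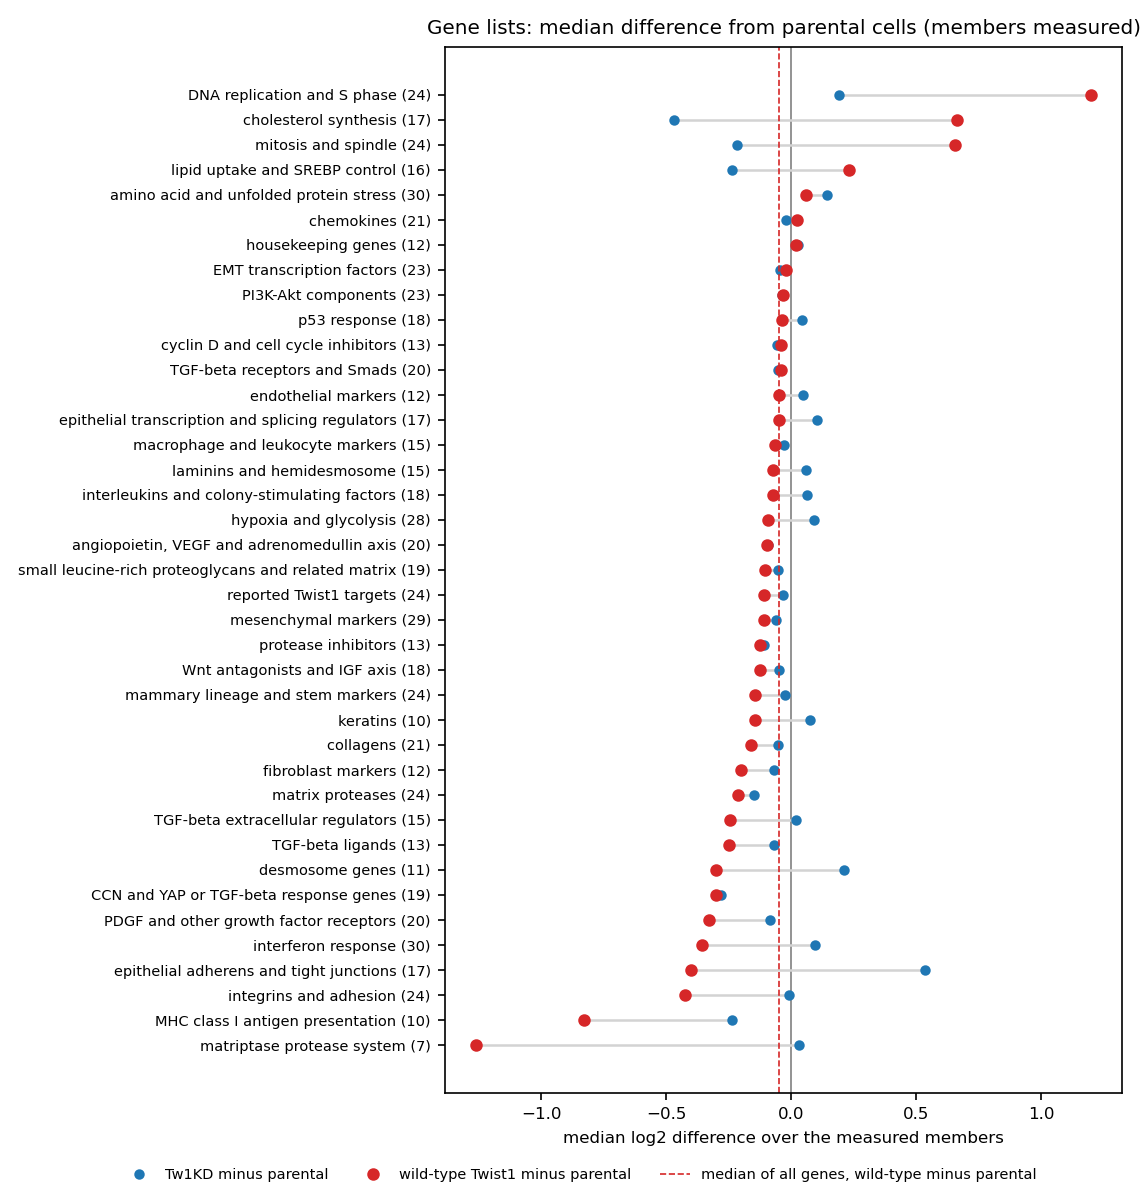
Median log2 difference from parental cells (horizontal axis) over the measured members of 39 gene lists (rows, with the number measured), for the wild-type Twist1 line (red) and Tw1KD (blue), joined by a line. The red points of DNA replication (1.2), cholesterol synthesis (0.67) and mitosis (0.66) lie furthest right, those of the matriptase system (-1.26) and MHC class I presentation (-0.83) furthest left, and the dashed line marks the median of all genes (-0.05).

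A few chemoattractant and immune-type genes were raised many-fold. Ccl2, which draws monocytes, read 7.74, 7.92 and 7.88 in parental cells, 6.57, 7.45 and 6.77 after depletion and 10.91, 11.01 and 10.93 in the restored line (3.10 ± 0.16). Its neighbour in function Ccl7 read 6.95, 7.03 and 6.70, then 6.84, 7.02 and 6.75, then 10.15, 10.41 and 10.27, a 10.4-fold rise over parental cells that was not seen after depletion. Of 21 chemokines 8 were higher and 6 lower, against 25% and 24% of all genes, the lowest being Cxcl15 (-4.22). Csf2rb, the shared receptor chain for GM-CSF, IL-3 and IL-5, rose from 6.98, 6.83 and 6.45 in parental cells to 10.88 on all 3 restored arrays, with Tw1KD cells between them (7.59 to 7.80). Il33, an alarmin, was lower by 2.56 ± 0.14.

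The tetraspanin gene Cd53, usually found in leukocytes, read 6.19, 5.98 and 5.92 in parental cells and 9.74, 9.78 and 9.75 in the restored line. Of 15 macrophage and leukocyte markers 3 were higher (Cd53, Cd68 and Cd14) and 1 lower (Cd3e, -0.29), against 25% and 24% of all genes. Their summed linear intensity was 1165 to 1203 on parental, 2234 to 2411 on Tw1KD and 2643 to 2677 on restored arrays. In parental and in restored cells 10 of the 15 had means below 6 log2. The sum therefore rests mostly on the few brighter markers, such as Cd53 and Cd68 in the restored line (means 9.76 and 9.80). The pan-leukocyte marker Ptprc lay at 5.08 to 5.31 in parental cells and 5.08 to 5.16 in the restored line, near the lower quartile of the arrays. The fibroblast marker Dpt, dermatopontin, rose from 4.78, 5.04 and 4.46 to 8.62, 8.68 and 8.66 (3.89 ± 0.12), while 5 of the 12 fibroblast markers were lower (3 with median centring), 3 were higher, Lum stayed at 3.48 to 3.89, and the sum over the list was 3473 to 3661 on parental and 2179 to 2253 on restored arrays. Of 12 endothelial markers 1 was higher (Cdh5, 0.69) and 1 lower (Egfl7, -0.60), and their sum was 3511 to 3712 and 3327 to 3406. The part of other cells in these results was not tested. In whole cultures, more RNA per cell and more cells of a kind cannot be told apart.

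The axis of angiopoietins, VEGF and adrenomedullin held genes of several classes. Of 20 measured, 6 were lower and 5 higher than in parental cells, against 24% and 25% of all genes (5 and 6 of the 20 with median centring). Angpt1, the ligand of the Tie2 receptor, read 9.82, 9.74 and 9.87 in parental cells and fell to 5.77, 5.68 and 6.15 on depletion. The restored arrays, at 7.05, 7.03 and 6.92, lay between these with no overlap, 28.8% of the way back. Nrp1, a co-receptor of VEGF and semaphorins, regained more (-0.82 against -2.21 after depletion), and Flt1, a VEGF receptor, most of its loss (-0.21 against -2.33). Vegfc and Vegfd, ligands that act on lymphatic vessels, overshot upward (1.47 and 0.95). Adm, adrenomedullin itself, was higher by 0.97, while its receptor chain Calcrl was lower. Ramp1, the partner of Calcrl in the receptor of calcitonin gene-related peptide, was lower as well (-1.46). Of 18 Wnt antagonists and IGF genes 5 were lower and 0 higher, against 24% and 25% of all genes, and 4 and 1 with median centring. Beside Sfrp1 the lower ones were Igf2 (-1.17), Igfbp7 (-1.0 after -3.98 on depletion), Igf1r (-0.92) and Igfbp4 (-0.14).

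The hypoxia and glycolysis genes beyond the carbonic anhydrases were mixed. For the list counts that follow, 24% of all genes were called lower and 25% higher with the deposited values. Aldoc, an aldolase, was lower by 2.82 and Pdk1, a kinase of pyruvate dehydrogenase, by 1.15. Higher were Pfkfb3, a regulator of glycolysis (0.81), Pfkp, a phosphofructokinase (0.55), and Slc2a1, the glucose transporter GLUT1 (0.46). Of 18 p53 response genes 7 were lower and 7 higher, among them Gadd45a (-1.21), Sesn1 (-1.30) and Plk3 (1.44). Of 30 genes of amino acid and unfolded protein stress 14 were higher and 11 lower. Cth, an enzyme of cysteine synthesis (-1.02), and Slc7a11, the cystine transporter (-1.01), had moved further down, whereas Trib3, Stc2 and Herpud1, raised by depletion, ended below parental cells (-0.22, -0.47 and -0.20). Of 23 PI3K-Akt components 9 were lower and 7 higher. The largest rise was in Irs1, an adaptor of insulin and IGF receptors (1.63), and the largest falls in Inpp4b, a lipid phosphatase that overshot downward (-0.96), and Foxo1 (-0.93). With median centring 5 of them were lower and 9 higher, and of the stress genes 6 lower and 15 higher.

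Among secreted proteins, 5 of 18 interleukins and colony-stimulating factors were lower and 3 higher. This and the list counts that follow compare with 24% of all genes lower and 25% higher with the deposited values. Il24 had risen by 3.64 on depletion and ended 0.73 below parental cells, while Il18 stayed low (-1.29). Csf1, the macrophage growth factor (0.64), and Il15 (0.62) overshot upward. Of 13 protease inhibitors 5 were lower and 4 higher, and 4 were not back. Of those 4, Serpinf1, which encodes PEDF, stayed at -2.44, Reck, a membrane inhibitor of matrix proteases, at -1.0, Timp4 at -0.39 and Cst6, a cystatin, at 1.51. Serpinb5, maspin, was back (-0.077 after a rise of 2.55). Of 19 small leucine-rich proteoglycans and related matrix genes 6 were lower and 3 higher. Ogn, osteoglycin, regained 19.3% of its loss (-3.92), and Bgn, biglycan, overshot upward (0.40). Of 15 laminin and hemidesmosome genes 4 were lower and 2 higher, with Plec, the linker plectin, at 1.07 (1 lower and 3 higher with median centring). Of 24 mammary lineage and stem cell markers 10 were lower and 2 higher (Itga6 and Bmi1). Of 13 D cyclins and cell cycle inhibitors 3 were lower and 3 higher. Of 12 housekeeping genes 3 were higher, with Hprt at 0.77, and 2 lower (Rplp0 and Rps18, both -0.21). With median centring 8 of the 12 were higher and 0 lower, with a list median of 0.14. The same setting gave 5 lower and 5 higher interleukins and colony-stimulating factors, 3 and 4 protease inhibitors, 5 and 4 proteoglycan and matrix genes, 7 and 3 mammary markers, and 2 and 4 D cyclins and inhibitors.

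Other genes with large distances belonged to none of these lists or to a list already given. Atp13a4, a P-type transport ATPase, rose most of all, from 6.67, 6.65 and 6.26 in parental cells past 8.57, 8.70 and 8.83 in Tw1KD cells to 10.87, 10.82 and 10.80. Havcr2, the immune receptor TIM-3, was 3.20 above parental cells, close to its Tw1KD level (0.29 above it). Irs1 overshot, at 9.12, 9.01 and 9.19 in parental cells, 8.09, 7.85 and 7.98 after depletion and 10.68, 10.79 and 10.74 in the restored line. A second, dimmer probe set of Irs1 differed by 0.42. Esr1, the estrogen receptor, was lower by 1.38 ± 0.055. Hsd17b11, a lipid droplet dehydrogenase, came back for 86.2% of the largest loss on depletion, from 5.31, 4.83 and 5.10 to 9.79, 9.83 and 9.79 against 10.55, 10.52 and 10.61 in parental cells. Rises of Nlrp4e (3.69), Serpinb9b (3.58), Rnase2a (3.32) and Ifi207 (3.12) and the fall of Xlr (-4.29) are uncertain as to the member, since these genes have near-identical relatives.

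The same genes were set beside the other re-expressing lines. All 3 lines are set against the same parental arrays, so the differences between re-expressing lines were tested directly, with 40% of genes called between the wild-type and S42A lines and 43.3% between the wild-type and S42D lines. Against parental cells 40.3% of genes were called in S42A and 37% in S42D. Sfrp1 stayed low in each, at -4.20 in the wild-type line, -4.05 in S42A and -4.19 in S42D, and neither difference was called (adjusted p = 0.163 and 0.965 in limma). Esrp1 (-2.79, -2.62 and -2.70) and Epcam (-2.70, -2.81 and -2.73) gave no called difference either. The mean levels in the wild-type, S42A and S42D lines were 5.15, 5.31 and 5.16 for Sfrp1, 5.05, 5.22 and 5.15 for Esrp1, and 5.66, 5.55 and 5.63 for Epcam. All lie near the lower quartile of the arrays (5.01 to 5.17), where like distances from parental cells do not show a like loss. Dpt rose in each (3.89, 4.04 and 3.41). Itga8 was 4.40 below parental cells in the wild-type line but 0.50 above them in S42A. In S42D it was not called against parental cells (0.15). The wild-type line differed from both other lines (adjusted p = 1.07e-14 for S42A and 6.9e-15 for S42D in limma). Spry1 was at -4.40, against -0.57 in S42A and 0.68 in S42D. Pdgfc was at -3.53, against -0.43 and 1.92.

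Some genes, named after their values were seen, stood nearer to parental cells in S42D than in the wild-type line, and others further away. Inhba was at -2.35 in the wild-type line and -0.031 in S42D, Pdgfra at -1.45 and 0.092, and Tgfb2 at -1.65 and -0.16. Cdh5 was at 0.69 in the wild-type line and 5.01 in S42D, Bgn at 0.40 and 3.51, and Cd53 at 3.72 and 5.33. Twist1 read -0.70 in the wild-type line, -0.33 in S42A and -0.034 in S42D on the same probe set, and the part of these levels in the differences was not tested. The cholesterol list had medians of 0.67, 0.59 and -0.24 in the wild-type, S42A and S42D lines, and DNA replication 1.2, 0.69 and 0.53. The interferon list had medians of -0.36, 0.89 and 0.082. These medians carry no test.

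**Figure D5:**
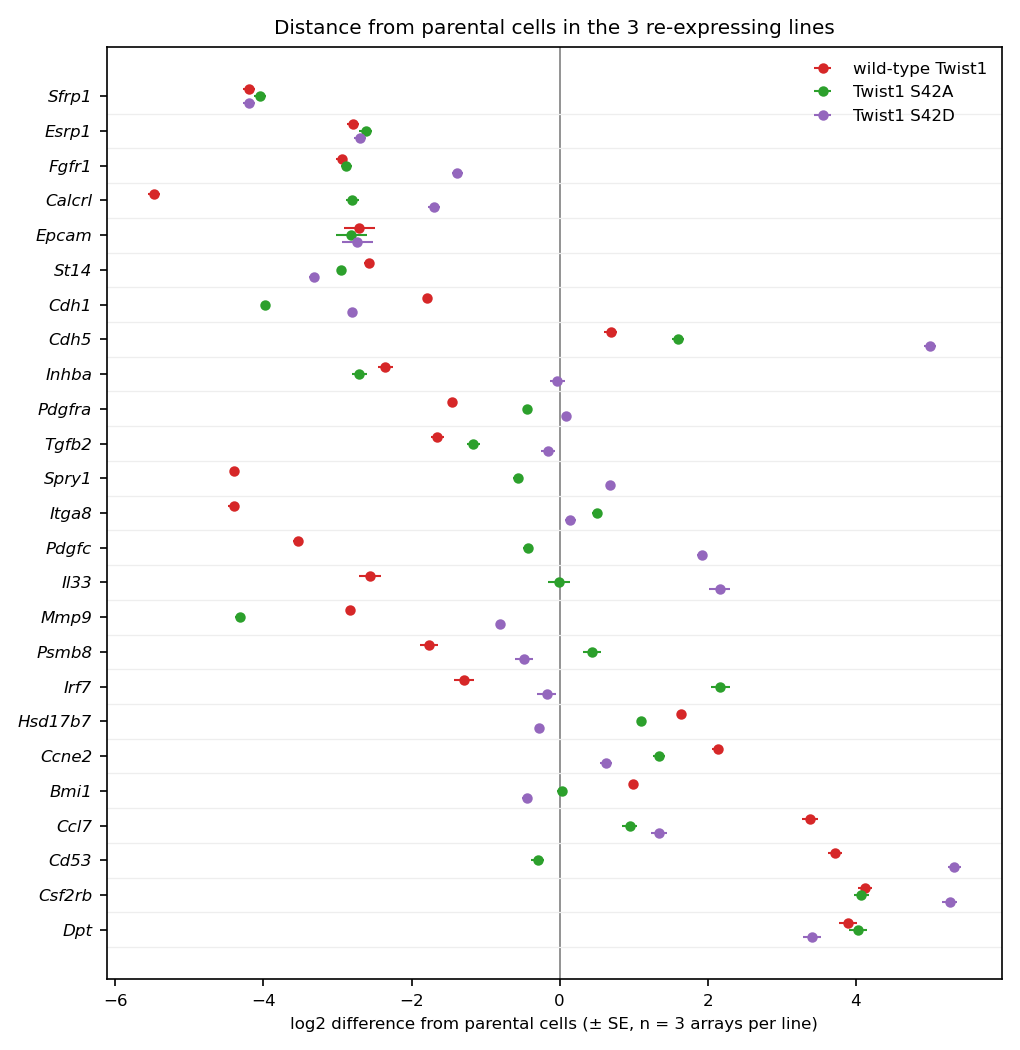
Log2 difference from parental cells (horizontal axis, ± SE, n = 3 arrays per line) of 25 genes in the wild-type Twist1 (red), S42A (green) and S42D (purple) lines. Sfrp1, Esrp1 and Epcam lie at about the same distance in all 3 lines, with levels near the array background in each, whereas Spry1, Itga8 and Pdgfc lie far left (-4.40, -4.40 and -3.53) in the wild-type line alone.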

How the data were processed

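The authors' deposited log2 intensities, 1 per probe set for 34760 probe sets on 15 arrays, were used as given. Their unit was read from the values. The submitters' processing notes name affy and R 2.10.0 without saying what each did. How background was corrected and arrays were normalized is not given in the sources used here. Scaling between arrays makes each difference relative to the other transcripts. Platform annotation, updated through the GRCm38.p6 gene table (21553 probe sets matched), gave 21640 probe sets 1 symbol, 1321 several and 11799 none. The brightest probe set with 1 symbol stood for each of 19937 genes. Groups came from the sample titles.

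A mean per line was fitted over all 15 arrays in limma 3.58.1 (lmFit and eBayes, R 4.3.3), 2-sided, with Benjamini-Hochberg adjustment over all genes. The fit was tested on simulated data. Share returned is the wild-type shift from Tw1KD as a percentage of the depletion difference, for differences of at least 1 log2. The members and the 39 gene lists (767 entries, 726 measured) were chosen with earlier results of these data known. So were the rules for naming genes: the 12 largest rises and falls, the 6 largest per class, in each list at most 2 called members a direction, and 10 genes whatever their result. Genes outside these rules (Dsp, Cxcl16, Plat, Spry2, Spry4 and list members given as examples) were picked after their values were seen, as were the genes drawn. The E-boxes were fixed with the tests, whereas the E2F-type and sterol motifs were added after the lists were seen. Promoter windows are from RefSeq, and genes without one are named only. Alternatives were median centring, quantile normalization, a filter below the 25th percentile, array weights, fewer lines, a stricter threshold (0.01), a 1.5-fold limit, all probe sets, a replicate block and each array left out. List counts were followed only where at least 8 members were called, a limit set after the counts were seen.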

Additional observations from a re-analysis of the deposited data

Results flagged for a closer look

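The genes below lay above parental cells in one re-expressing line and below them in another, the wild-type Twist1 line being one of each pair, both called, with at least 3 log2 between the lines. That limit was chosen after the values had been seen. Each difference between lines was called in limma, the largest adjusted p being 1.56e-10 (C1s1). The genes were selected by the size of these same differences. The calls therefore follow from the selection and are no separate test of it.

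Against S42A, Itga8 differed by -4.91 log2 (wild-type minus S42A), Xlr by -6.20, Angpt1 by -3.23, Irf7 by -3.46 and Cd53 by 4.02. For Cd53, the wild-type line was at 3.72 against parental cells and S42A at -0.30. Irf7 was at -1.29 in the wild-type line and 2.17 in S42A.

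Against S42D, Spry1 differed by -5.08 (wild-type minus S42D), Xlr by -5.57, Car12 by -4.54, Pdgfc by -5.46, Angptl7 by -5.38, C1s1 by -3.53 and Il33 by -4.73. Angptl7, an angiopoietin-like factor, was at -2.84 in the wild-type line and 2.54 in S42D. Il33 was at -2.56 and 2.16. Xlr has near-identical relatives that the probes may not separate.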

How the results depend on the processing

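The number of called genes was within 1.5 times under median centring (9122), quantile normalization (9394) and the replicate number as a block (9642). It ranged from 8593 to 10295 with 1 array left out. Against a 1.5-fold limit 1546 genes were called, 858 higher and 688 lower. Calls lower fell to 2590 after median centring, and with all probe sets tested 711 were lower by at least 1 log2. Undecided genes numbered 231 to 434 with 1 array left out, the most without wild-type replicate 1 or 2. With median centring the lower members numbered 6 of the mesenchymal markers, 6 of the TGF-beta extracellular regulators, 5 of the PI3K-Akt components, 4 of the collagens and 6 of the stress genes. Lower collagens numbered 5 after quantile normalization and 4 to 11 with 1 array left out, with 4 or 5 when replicate 1 or 2 of either line was left out. Lower TGF-beta extracellular regulators numbered 6 to 10, the fewest without wild-type replicate 2. Dhcr7 (0.012), Cdh2 (0.011) and Snai2 (0.019) changed sign with median centring. Of the 150 named genes, 138 kept direction and side of the threshold under all 15 settings tried on them. Same-numbered parental and wild-type arrays did not deviate together (correlations -0.168 to 0.0189). Between parental and Tw1KD arrays, which the classes use, the same-numbered correlations were 0.0146, 0.394 and 0.417 for replicates 1, 2 and 3. Over all lines same-numbered arrays ranged from -0.39 to 0.417. Whether the numbers pair arrays is not settled by these values. The block changed no count by over 1.5 times.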
